A study of Mus musculus with 6 samples.

Results

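Feedback regulators and adhesion molecules that respond to NF-kB (nuclear factor kappa B) are described here across mouse livers. They are 10 of the 55385 genes in the deposited table, chosen by name, with earlier results of these data known. By role they are the inhibitors and cofactors of the IkB family Nfkbia, Nfkbiz and Bcl3, the subunit genes Nfkb1, Nfkb2 and Relb, the ubiquitin regulators Tnfaip3 and Birc3, and the endothelial adhesion molecules Icam1 and Vcam1. NF-kB dimers are held in the cytoplasm by IkB proteins until an upstream kinase complex, switched on by cytokine or pattern recognition receptors, marks the inhibitor for degradation. The freed dimers enter the nucleus and switch on, among other genes, their own inhibitors, which ends the signal, and adhesion molecules, which let circulating leukocytes attach to the vessel wall. In the injured liver this pathway acts in hepatocytes as well as in Kupffer cells, endothelium and recruited leukocytes.

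The livers came from 6 mice of the C57BL/6 strain, all 6 weeks old, in 3 groups of 2. The first group was Optn-/- mice given 500 mg/kg acetaminophen (APAP, mice 4 and 5), the second was wild-type mice given the same dose (mice 1 and 4), and the third was wild-type mice injected into the abdominal cavity with 200 µL of PBS (mice 3 and 6). All livers were taken after 6 h, and a mouse number shared by different groups does not denote the same animal. Optn encodes optineurin, an autophagy receptor whose ubiquitin-binding part resembles that of the kinase subunit NEMO, with which it competes for ubiquitin chains in cultured human cells. The labels do not say how the Optn allele was made or in which cells it is lost. No Optn-/- mice without acetaminophen were analysed here, so the response to the drug in that genotype could not be separated from the effect of the genotype itself.

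The promoter is where NF-kB binds many of these genes, so the stretches just before 5 of their starts are shown first. RefSeq promoter windows of the GRCm38.p6 build were found for 6 of the 10 genes: Nfkbia, Nfkb2, Bcl3, Tnfaip3, Birc3 and Icam1. They were searched on both strands for the classical and the relaxed kB consensus, each 10 bases long, and matches were allowed to overlap. Below, each stretch runs 5′ to 3′ on the gene's own strand and ends at the base before the RefSeq start, except for Bcl3, which runs on into its first 12 transcribed bases. Capitals mark matches to either consensus.
Nfkbia, chr12:55492648-55492807, minus strand: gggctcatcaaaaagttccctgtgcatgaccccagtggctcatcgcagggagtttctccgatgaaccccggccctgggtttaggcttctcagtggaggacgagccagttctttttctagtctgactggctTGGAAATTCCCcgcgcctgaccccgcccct
Bcl3, chr7:19822744-19822915, minus strand: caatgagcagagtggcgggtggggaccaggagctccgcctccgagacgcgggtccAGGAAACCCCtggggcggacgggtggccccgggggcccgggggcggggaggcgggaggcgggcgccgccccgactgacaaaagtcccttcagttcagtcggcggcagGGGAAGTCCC
Nfkb2, first of 3 starts, chr19:46304577-46304736, plus strand: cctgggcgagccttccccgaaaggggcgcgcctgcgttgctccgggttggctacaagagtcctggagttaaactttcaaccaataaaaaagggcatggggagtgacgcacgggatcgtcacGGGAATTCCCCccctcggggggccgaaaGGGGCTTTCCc
Tnfaip3, first of 2 starts, chr10:19015411-19015570, minus strand: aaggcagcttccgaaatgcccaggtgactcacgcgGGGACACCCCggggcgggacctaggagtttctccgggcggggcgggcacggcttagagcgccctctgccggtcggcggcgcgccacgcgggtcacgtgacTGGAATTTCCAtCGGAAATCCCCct
Icam1, chr9:21015780-21015939, plus strand: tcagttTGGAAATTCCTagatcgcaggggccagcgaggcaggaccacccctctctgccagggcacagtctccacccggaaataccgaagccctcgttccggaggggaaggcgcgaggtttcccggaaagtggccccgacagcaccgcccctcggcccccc

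In Nfkbia a classical match (GGGAATTTCC on the opposite strand) lay at -29 to -20, counted from the start as 1, and overlapped a relaxed match. Bcl3 had the classical match GGGAAGTCCC at bases 3 to 12 of the transcript and a relaxed match from -105 to -96. The first Nfkb2 window held GGGAATTCCC at -39 to -30 and GGGGCTTTCC at -11 to -2. In the first Tnfaip3 window a classical match lay at -125 to -116, and a cluster of classical and relaxed matches spanned -25 to -3. Icam1 held overlapping relaxed matches, together at -154 to -144, and no classical one in this window. No match was present in the Birc3 window.

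Of the 6 genes, 5 had a match to either consensus in at least 1 window, and 4 had a classical match. By window, 7 of 9 had a match. The windows of Nfkb2 starts 2 and 3 overlap, and the only match of start 3 is a site also counted for start 2. The shares over all windows that follow are by window, so they do not compare directly with the count by gene. Among all 32851 RefSeq mouse promoter windows of the same length, 13.9% held a match to either consensus, 8.5% a classical and 8.4% a relaxed one. Several of these genes are textbook NF-kB targets, and a match is a description of the letters, not evidence of binding in these livers.

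**Figure D1:**
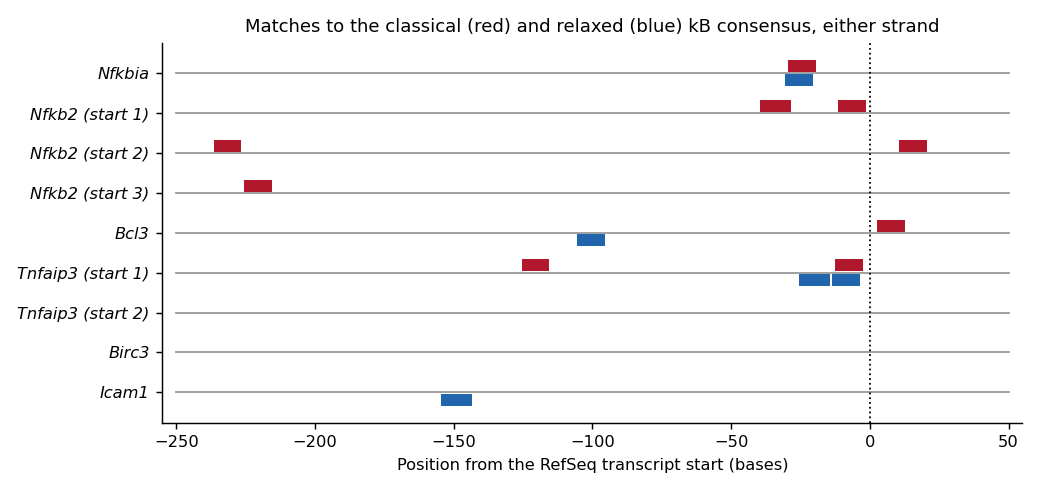
Positions of matches to the classical (red, above the line) and relaxed (blue, below the line) kB consensus in the 9 RefSeq promoter windows of 6 genes. The horizontal axis is the distance in bases from the RefSeq transcript start (dotted line), and 7 of the 9 windows hold at least 1 match.

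Depth and sample checks came before the gene values. Total counts were 77.3 and 62.5 M (1e6 counts) in the treated Optn-/- libraries, 66.0 and 71.1 M in the treated wild-type libraries and 59.1 and 75.9 M in the PBS libraries. Optn had an FPKM (fragments per kilobase and per 1e6 fragments) of 0.32 and 0.46 in the treated Optn-/- livers, against 9.17 and 9.19 in treated and 20.95 and 18.73 in PBS wild-type livers, so no library went against its genotype label; the treated genotypes differed by -4.59 ± 0.21 on the log2 scale (SE, edgeR adjusted p = 0.00423). Hepatocyte markers (6 genes) summed to 93500 to 124000 CPM (counts per 1e6 counts) in treated Optn-/- livers, 132000 to 134000 in treated wild type and 118000 to 122000 in PBS wild type, although the extraction protocol in the labels speaks of an adipose tissue. Skeletal muscle transcripts were found in both treated wild-type libraries and PBS mouse 3 (67.1 to 102 CPM over 12 markers), against at most 1.01 CPM in the others. Intestinal transcripts were higher in both treated Optn-/- libraries and PBS mouse 6 (48.2 to 66.9 CPM) than in the rest (15.3 to 19.8 CPM). Genotype after acetaminophen and this division of the libraries therefore cannot be told apart. In bulk liver, a change in the number of cells of a type and a change in RNA per cell cannot be told apart either.

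All 10 genes passed the filter for testing, a mean FPKM of at least 0.5 over the 6 libraries, which left 11677 genes. Relb and Tnfaip3 had a PBS mean below 0.5 and passed through the treated groups, which favours genes that rose. Their places in the counts against PBS below therefore add no separate evidence of a rise. Differences between groups below are log2 fold changes ± standard error (SE) from edgeR's quasi-likelihood test on the deposited counts, with a p-value adjusted over all 11677 genes. A gene is said to have risen or fallen where this adjusted p was under 0.05. Gene levels are FPKM and are given for each mouse, in the order of the mouse numbers above.

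After acetaminophen in wild type, the genes that rose were 3 of the IkB family, Nfkbiz, Bcl3 and Nfkbia, and the adhesion molecule Icam1. All 10 fold changes were positive, 4 of 10 genes rose and none fell, where 8.36% of all genes tested rose. Here and below, shares of all genes give scale only, because the 10 were chosen with earlier results of these data known. At an unadjusted p under 0.05, 8 of the 10 were higher, while 3767 of the 11677 genes tested reached that p in either direction. By FPKM, both treated mice lay above both PBS mice in 7 of 10, against 21.1% of all genes tested. The exceptions were Nfkb1, Birc3 and Vcam1. FPKM lacks the scaling that edgeR applied to the counts, and on scaled log2 CPM these genes did not overlap, Vcam1 by little. The share of all genes without overlap on that scale was not computed, so only the count by FPKM has a share beside it. Standardized over the libraries, treated against PBS mice had -0.33 and -0.17 against -1.12 and -0.76 for Nfkb1. The values were 0.54 and -0.67 against -1.05 and -0.94 for Birc3, and 1.05 and -0.34 against -1.65 and -0.39 for Vcam1. The median log2 fold change of the 10 genes was 1.43, with a range of 0.25 to 3.47, beside a median of 0.03 over all genes tested.

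**Figure D2:**
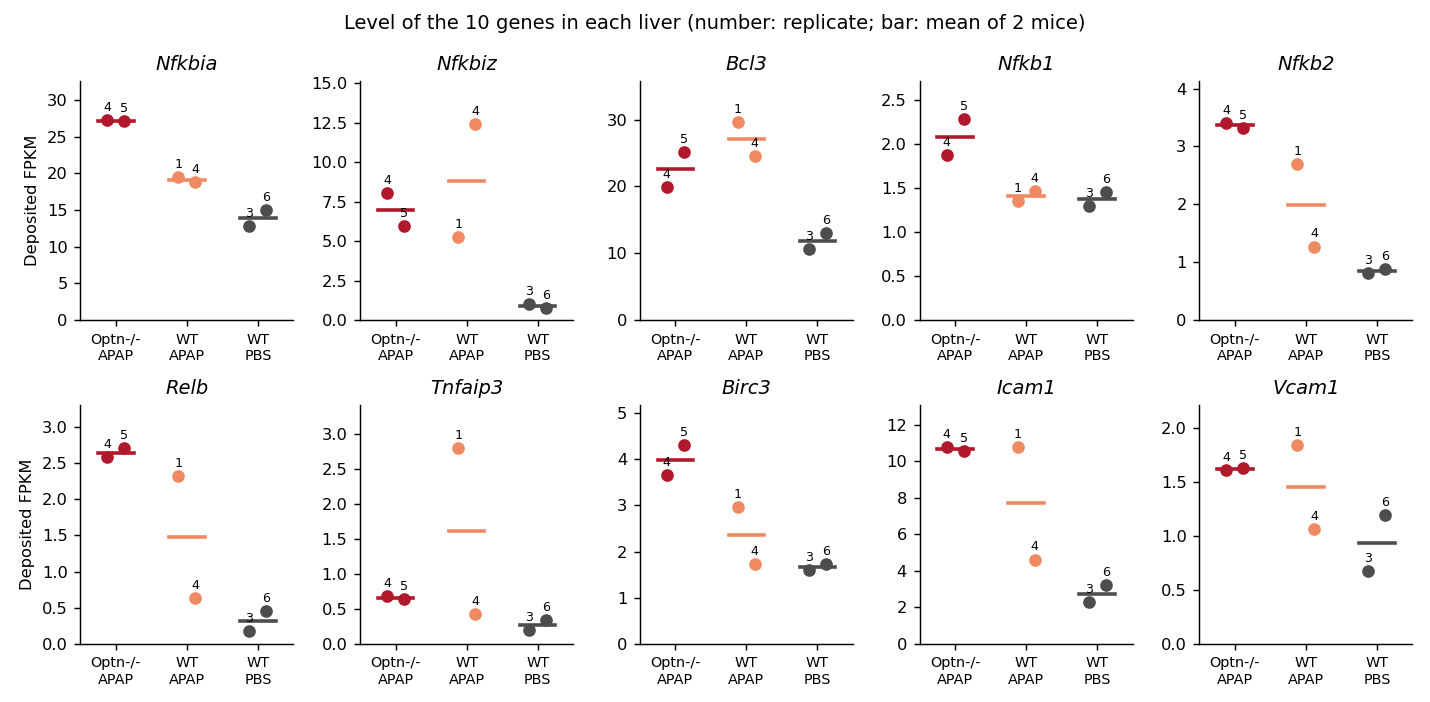
FPKM of each of the 10 genes in every liver on a linear axis, with Optn-/- acetaminophen, wild-type acetaminophen and wild-type PBS groups from left to right. Points are single mice labelled by number and bars are group means (n = 2). The treated Optn-/- mice lie above both PBS mice in all 10 panels, while treated wild-type mice 1 and 4 stand far apart for Relb, Tnfaip3, Nfkb2, Icam1 and Nfkbiz.

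Nfkbiz (ENSMUSG00000035356, GRCm38 chromosome 16, 55811375 to 55838899, minus strand) encodes IkB-zeta, a nuclear IkB protein that helps induce secondary response genes. Its FPKM was 8.04 and 5.93 in treated Optn-/- livers, 5.25 and 12.40 in treated wild-type livers and 1.04 and 0.78 in PBS wild-type livers. All treated livers were well above both PBS livers, and the treated groups overlapped. Against PBS it rose by a log2 fold change of 3.47 ± 0.45 in wild type, an 11.1-fold difference (edgeR adjusted p = 0.00918). In treated Optn-/- livers the rise against PBS was 3.12 ± 0.44 (edgeR adjusted p = 0.00812). It passed the threshold against PBS in both genotypes under all 16 alternative settings.

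Bcl3 (ENSMUSG00000053175, chromosome 7, 19808462 to 19822770, minus strand) encodes a nuclear IkB protein that joins p50 and p52 homodimers and can make them transcriptional activators. Treated Optn-/- livers had 19.97 and 25.11 FPKM, treated wild-type livers 29.71 and 24.58, and PBS wild-type livers 10.61 and 12.98. Every treated mouse exceeded both PBS mice, and 1 Optn-/- mouse lay within the treated wild-type range. Against PBS the rise was 1.42 ± 0.19 in treated wild type (edgeR adjusted p = 0.00982) and 1.11 ± 0.19 in treated Optn-/- livers (edgeR adjusted p = 0.013). The wild-type call was kept in 15 of 16 alternatives and was lost without PBS mouse 3, where the adjusted p was 0.0586.

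Nfkbia (ENSMUSG00000021025, chromosome 12, 55489410 to 55492647, minus strand) encodes IkB-alpha, the classical feedback inhibitor that NF-kB induces within its own signalling cycle. It was the most abundant of the 10 genes by FPKM in both treated Optn-/- livers and both PBS livers, while Bcl3 was more abundant in treated wild type. Its FPKM was 27.24 and 27.16 in treated Optn-/- livers, 19.47 and 18.83 in treated wild-type livers and 12.83 and 14.98 in PBS wild-type livers. The 3 groups did not overlap and stood in that order. Against PBS the rise was 0.67 ± 0.13 in treated wild type (edgeR adjusted p = 0.0248) and 1.15 ± 0.13 in treated Optn-/- livers (edgeR adjusted p = 0.00456). The wild-type call was kept in 4 of 16 alternatives, with a log2 fold change between 0.44 and 0.77 and an adjusted p between 0.000112 and 0.125. That in treated Optn-/- livers was kept in all 16.

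Nfkb1 (ENSMUSG00000028163, chromosome 3, 135584655 to 135691546, minus strand) encodes p105, the precursor of the p50 subunit. Treated Optn-/- livers had 1.88 and 2.28 FPKM, treated wild-type livers 1.35 and 1.47, and PBS wild-type livers 1.30 and 1.45. Both Optn-/- mice were above all 4 wild-type mice, whose treated and PBS values overlapped by FPKM. The treated wild-type difference from PBS of 0.25 ± 0.14 did not pass (edgeR adjusted p = 0.296), nor did it in any of the 15 alternatives that tested the gene. Treated Optn-/- livers were higher than PBS by 0.77 ± 0.15 (edgeR adjusted p = 0.0182), which was past the threshold in 8 of those 15.

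Nfkb2 (ENSMUSG00000025225, chromosome 19, 46304320 to 46312385, plus strand) and Relb (ENSMUSG00000002983, chromosome 7, 19606217 to 19629438, minus strand) encode p100, the precursor of p52, and RelB, which together form the dimer of the non-canonical pathway. Nfkb2 had 3.41 and 3.32 FPKM in treated Optn-/- livers, 2.69 and 1.27 in treated wild-type livers and 0.82 and 0.88 in PBS wild-type livers. Relb had 2.58 and 2.71 FPKM in treated Optn-/- livers, 2.32 and 0.63 in treated wild-type livers and 0.18 and 0.45 in PBS wild-type livers. For both genes the 3 groups did not overlap and stood in the order treated Optn-/-, treated wild type, PBS, and treated wild-type mouse 4 was nearer to the PBS mice than mouse 1 was. In treated wild type against PBS neither passed: Nfkb2 differed by 1.44 ± 0.37 (edgeR adjusted p = 0.0542) and Relb by 2.45 ± 0.72 (edgeR adjusted p = 0.075). In treated Optn-/- livers against PBS both rose, Nfkb2 by 2.16 ± 0.38 (edgeR adjusted p = 0.0148) and Relb by 3.24 ± 0.74 (edgeR adjusted p = 0.0307). Each of these calls was kept in 10 of 15 alternatives and lost without either Optn-/- mouse, without either PBS mouse and with a term for the library set.

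Nfkb2 shares 299 exonic bases with Psd and 531 with AC114539.1, both on the opposite strand, and whether counting used strand is not given in the sources used here. Psd had 107 and 218 counts in treated Optn-/- livers, 120 and 374 in treated wild-type and 35 and 46 in PBS wild-type livers. Reads of the shared bases could belong to either gene, so the level of Nfkb2 carries this uncertainty. Exons of Icam1, Bcl3 and Vcam1 also overlap those of antisense genes, Gm47079, Gm16175 and Gm43109, which had at most 21 counts in any library.

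Tnfaip3 (ENSMUSG00000019850, chromosome 10, 19000910 to 19015410, minus strand) encodes A20, an enzyme that edits ubiquitin chains and shuts down signalling to the kinase complex. Its FPKM was 0.68 and 0.64 in treated Optn-/- livers, 2.80 and 0.42 in treated wild-type livers and 0.19 and 0.34 in PBS wild-type livers. The highest and the lowest treated mouse were both wild type, and both lay above the PBS mice. The treated wild-type difference from PBS was 2.83 ± 0.87 (edgeR adjusted p = 0.0828), and that of treated Optn-/- livers from PBS was 1.5 ± 0.83 (edgeR adjusted p = 0.253). Neither passed the threshold. The wild-type estimate was 0.86 without treated mouse 1 and 3.64 without treated mouse 4.

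Birc3 (ENSMUSG00000032000, chromosome 9, 7848699 to 7873170, minus strand) encodes cIAP2, a ubiquitin ligase that acts at the TNF receptor complex. It had 3.66 and 4.31 FPKM in treated Optn-/- livers, 2.97 and 1.73 in treated wild-type livers and 1.61 and 1.74 in PBS wild-type livers. Both Optn-/- mice were above all wild-type mice, and treated wild-type mouse 4 lay within the PBS range by FPKM. Treated wild type differed from PBS by 0.71 ± 0.29 (edgeR adjusted p = 0.155). Treated Optn-/- livers were higher than PBS by 1.43 ± 0.29, which passed (edgeR adjusted p = 0.0225) and was kept in 10 of 15 alternatives. That call was lost without either Optn-/- mouse, without either PBS mouse and with the library set term. Birc3 has a close paralog, Birc2, and how reads shared by such copies were counted is not given in the sources used here. Birc2 itself did not pass, with 0.56 ± 0.32 in treated wild type against PBS (edgeR adjusted p = 0.288) and 0.82 ± 0.32 in treated Optn-/- livers against PBS (edgeR adjusted p = 0.128).

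Icam1 (ENSMUSG00000037405, chromosome 9, 21015985 to 21028817, plus strand) encodes the endothelial ligand of leukocyte beta-2 integrins, which hepatocytes can also express in inflammation. Treated Optn-/- livers had 10.81 and 10.58 FPKM, treated wild-type livers 10.79 and 4.62, and PBS wild-type livers 2.28 and 3.21. Both Optn-/- mice and treated wild-type mouse 1 were nearly equal, and wild-type mouse 4 lay between them and the PBS mice. Against PBS it rose by 1.71 ± 0.42 in treated wild type (edgeR adjusted p = 0.0477) and by 2.14 ± 0.42 in treated Optn-/- livers (edgeR adjusted p = 0.0207). The wild-type call was kept in 5 of 16 alternatives, with an adjusted p between 0.000491 and 0.192, and the Optn-/- call in 11 of 16.

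Vcam1 (ENSMUSG00000027962, chromosome 3, 116109949 to 116129688, minus strand) encodes the ligand of the integrin VLA-4 on monocytes and lymphocytes. Its FPKM was 1.61 and 1.63 in treated Optn-/- livers, 1.84 and 1.06 in treated wild-type livers and 0.67 and 1.19 in PBS wild-type livers. The 2 wild-type groups overlapped by FPKM, and the Optn-/- mice lay within the treated wild-type range. Neither the treated wild-type difference from PBS of 0.85 ± 0.37 (edgeR adjusted p = 0.172) nor that of treated Optn-/- livers of 0.98 ± 0.37 (edgeR adjusted p = 0.115) passed. Icam1 therefore passed against PBS in both genotypes and Vcam1 in neither, and the difference between these 2 genes was not tested.

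The number of genes past the threshold in treated wild type against PBS depended on single mice. It was 7 without treated wild-type mouse 4, where Relb, Tnfaip3, Nfkb2 and Birc3 passed and Nfkbia did not. It was 2 without treated wild-type mouse 1, without PBS mouse 6 or without Optn-/- mouse 5, and 1, Nfkbiz, without PBS mouse 3. With single mice left out, the log2 fold change ran from 1.19 to 3.23 for Relb, 0.76 to 1.90 for Nfkb2, 0.93 to 2.21 for Icam1, 0.22 to 1.07 for Birc3 and 0.36 to 1.27 for Vcam1. DESeq2 called 7 of the 10, and limma on log2(FPKM + 0.5) called 2, Nfkbiz and Bcl3. Among all genes the tally was 976 higher and 691 lower with TMM scaling (trimmed mean of M values), against 721 higher and 1470 lower with total-count scaling, which moved the median log2 fold change of all genes to -0.19 and left 2 of the 10 genes called.

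The 2 treated wild-type mice differed from each other in most of these genes. On normalized CPM, the log2 ratio of wild-type mouse 1 over mouse 4 was 2.74 for Tnfaip3, 1.89 for Relb, 1.28 for Icam1 and 1.13 for Nfkb2, which is a 6.69-fold, 3.7-fold, 2.43-fold and 2.18-fold difference. It was 0.84 for Birc3 and 0.85 for Vcam1, all of them higher in mouse 1. Nfkbiz ran the other way, at -1.18, and was higher in mouse 4. Nfkbia, Nfkb1 and Bcl3 differed little, with ratios between -0.06 and 0.33.

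In treated wild type, 5 of the 10 genes differed by over 2-fold between the mice, against 7.17% of all genes tested, and the median size of the log2 ratio was 0.99 beside 0.23 over all genes. In treated Optn-/- livers none of the 10 did (4.98% of all genes), with a median size of 0.10 beside 0.24. In PBS livers only Relb did, at -1.20 for mouse 3 over mouse 6 (6.71% of all genes), with a median size of 0.35 beside 0.20. With 2 mice a group, this spread between mice was described and not tested. Neutrophil markers (10 genes) also differed within treated wild type, summing to 146 CPM in mouse 1 and 70.6 CPM in mouse 4, as did neuronal markers (8 genes), at 14.3 CPM in mouse 1 and 138 CPM in mouse 4. Their part in the difference was not tested.

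**Figure D3:**
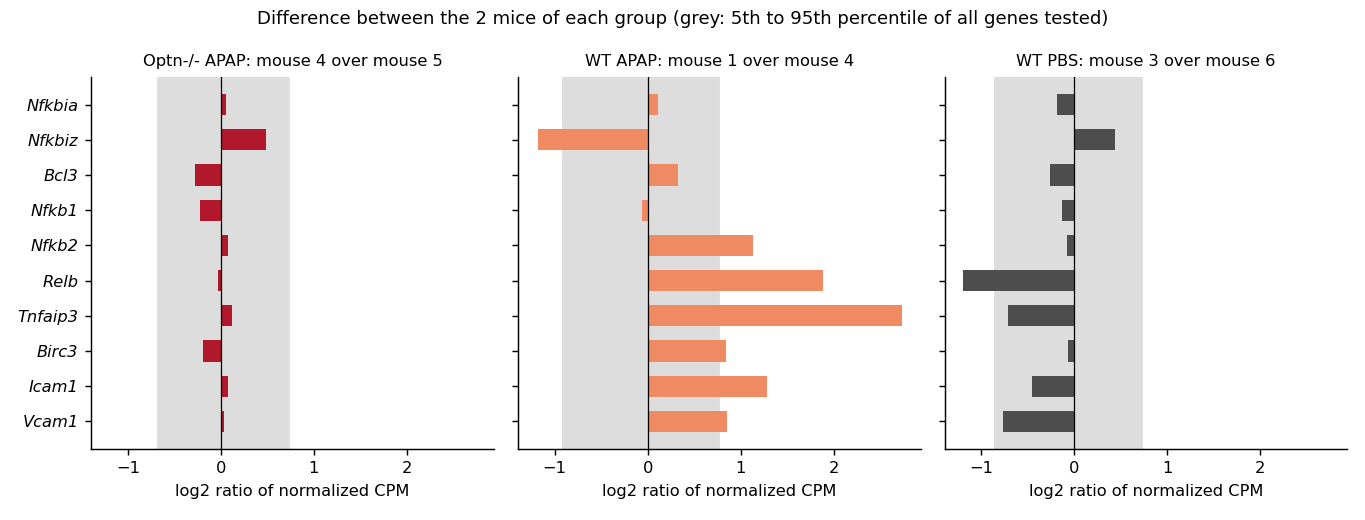
Log2 ratio of normalized CPM between the 2 mice of each group for the 10 genes, with treated Optn-/-, treated wild-type and PBS wild-type groups from left to right. Grey bands span the 5th to 95th percentile of all genes tested. In treated wild type Tnfaip3 (2.74), Relb (1.89), Icam1 (1.28), Nfkb2 (1.13), Birc3 (0.84) and Vcam1 (0.85) lie above the band and Nfkbiz (-1.18) below it, while all 10 lie inside it in treated Optn-/- livers.

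Between treated Optn-/- and treated wild-type livers none of the 10 genes passed edgeR's threshold, where 0.0514% of all genes tested were called higher. The comparison gave few calls: 12 genes passed in either direction, 6 of them higher, and 1024 had an unadjusted p under 0.05. Among the 10, 3 had an unadjusted p under 0.05, all higher in Optn-/- livers, DESeq2 called 1 of them, and limma called 0. Nfkbia was higher by 0.48 ± 0.13 and Nfkb1 by 0.52 ± 0.14 (edgeR adjusted p = 0.489 for each), and Birc3 by 0.72 ± 0.29 (edgeR adjusted p = 0.555). The gene called by DESeq2 was Nfkbia, at an adjusted p of 0.0482; over the 16 alternatives its adjusted p ran up to 1.0. A p that misses the threshold does not show that the genotypes were alike.

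In 5 of the 10 genes, Nfkbia, Nfkb1, Nfkb2, Relb and Birc3, both Optn-/- mice lay above both treated wild-type mice, and in none below, against 23.1% of all genes tested with both above. Nfkb2 differed by 0.72 ± 0.36 (edgeR adjusted p = 0.639) and Relb by 0.80 ± 0.67 (edgeR adjusted p = 0.779). The remaining 5 overlapped between genotypes. For Icam1 the difference was 0.43 ± 0.41 (edgeR adjusted p = 0.801) and for Vcam1 0.13 ± 0.36 (edgeR adjusted p = 0.945). Lower estimates in Optn-/- livers belonged to Nfkbiz, at -0.35 ± 0.40 (edgeR adjusted p = 0.842), Bcl3, at -0.30 ± 0.18 (edgeR adjusted p = 0.693), and Tnfaip3, at -1.33 ± 0.82 (edgeR adjusted p = 0.697).

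The sign for several genes rested on which treated wild-type mouse was kept. Without treated wild-type mouse 4 the estimate was 0.36 for Nfkbiz, -0.07 for Icam1 and -0.24 for Vcam1, and without mouse 1 it was 0.64 for Tnfaip3. Relb ran from 0.13 without mouse 4 to 2.06 without mouse 1, and Nfkb2 from 0.26 without mouse 4 to 1.40 without mouse 1; with a term for the library set (muscle or intestinal transcripts) Relb was at -0.52. For Nfkbia, Nfkb1 and Birc3 it stayed positive when any single mouse was left out, at 0.42 to 0.53, 0.41 to 0.63 and 0.36 to 1.20. The median over the 10 genes was 0.45, with a range of -1.33 to 0.80, beside -0.0 over all genes.

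**Figure D4:**
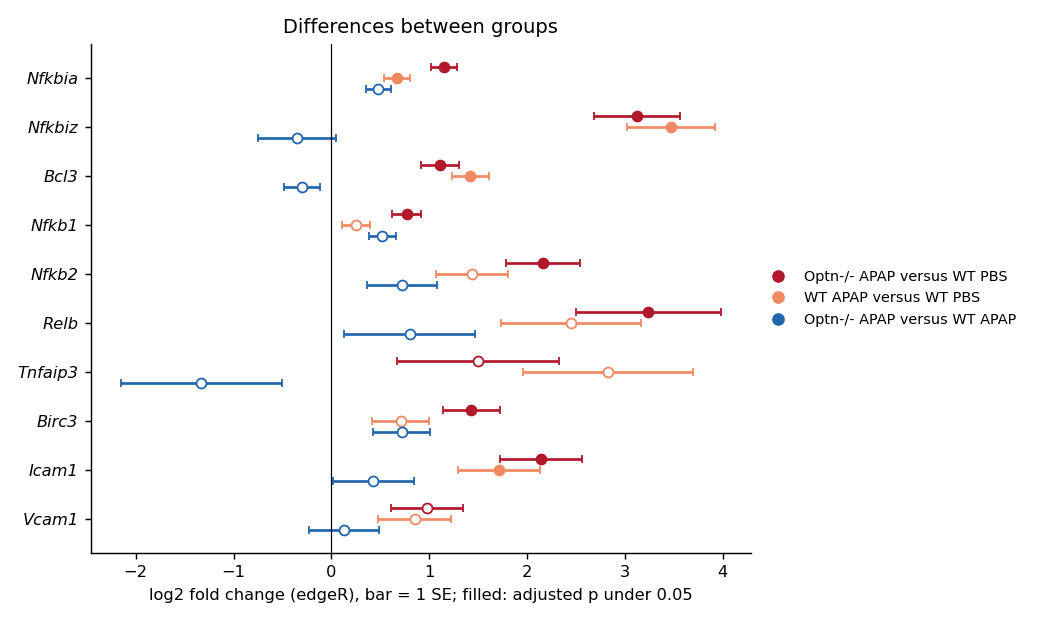
Log2 fold change of the 10 genes in the 3 comparisons from edgeR, with bars of 1 standard error; filled points have an adjusted p under 0.05. In treated Optn-/- against treated wild-type livers no point is filled and the estimates run from -1.33 to 0.80, in treated wild type against PBS 4 are filled, and in treated Optn-/- against PBS 8 are filled.

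Treated Optn-/- livers set against PBS wild-type livers differ in both genotype and drug, and share their mice with the comparisons above, so the values stand beside them as no separate evidence. Here 8 of 10 genes rose and none fell, where 12.2% of all genes tested rose. Tnfaip3 and Vcam1 were those that did not pass, and Relb, among the 8, had passed the filter only through the treated livers. In all 10 genes both treated Optn-/- mice lay above both PBS mice, against 24.3% of all genes tested. The median log2 fold change was 1.47, with a range of 0.77 to 3.24. The count was 4 without Optn-/- mouse 4, 2 without Optn-/- mouse 5, 2 without PBS mouse 3 and 3 without PBS mouse 6. Among all genes 1426 were higher and 940 lower, against 1134 higher and 1756 lower with total-count scaling, which left the 8 called.

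The rest of the pathway was counted on lists of its other genes. Beside the counts below, 8.36% of all genes tested rose in treated wild type against PBS, and 691 of 11677 fell. The filter used the mean FPKM over all 6 libraries. A gene low in PBS livers could therefore be tested only through the treated livers, which favours genes that rose. In treated wild type against PBS, 3 of 5 tested genes for other subunits and IkB proteins rose and none fell, with a median of 0.84. Rel, which encodes c-Rel of lymphoid and myeloid cells, rose by 2.05 ± 0.28 (edgeR adjusted p = 0.0103). Rela, which encodes the main activating subunit p65, rose by 0.98 ± 0.16 (edgeR adjusted p = 0.0156), at 23.15 and 20.07 FPKM in treated wild-type and 12.06 and 13.32 in PBS livers. Nfkbib, which encodes IkB-beta, rose by 0.84 ± 0.12 (edgeR adjusted p = 0.0114). In the treated Optn-/- livers Rela had 19.52 and 24.01 FPKM, which spanned the treated wild-type values.

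Upstream, 6 of 11 tested receptors and adaptors rose in treated wild type against PBS and none fell. Tnfrsf12a, the receptor of TWEAK and an activator of the non-canonical branch, rose by 3.40 ± 0.25 (edgeR adjusted p = 0.00241), and Il1r1, the signalling receptor of interleukin-1, by 3.29 ± 0.30 (edgeR adjusted p = 0.00374). Of the ligands 5 of 11 had enough signal to test and 0 passed (edgeR); Il1b, at 2.44 ± 0.68, had an adjusted p of 0.0663. Tnf was too low to test, with 66 and 51 counts in treated Optn-/- livers, 58 and 12 in treated wild-type and 4 and 0 in PBS wild-type livers. As with Tnfaip3 and Relb, treated wild-type mouse 4 had fewer than mouse 1.

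Of 15 kinases and kinase adaptors 4 rose and none fell in treated wild type against PBS. Map3k14, which encodes NIK of the non-canonical branch, rose by 1.37 ± 0.18 (edgeR adjusted p = 0.00971), and Tab2 and Irak3 rose by 1.19 ± 0.11 and 1.76 ± 0.36 (edgeR adjusted p = 0.00419 and 0.0287). Ikbkb, which encodes the catalytic kinase that targets IkB-alpha, was at -0.03 ± 0.16 (edgeR adjusted p = 0.931). Among 16 tested ubiquitin regulators 2 rose, Traf6 and Tnip2, which is near the 8.36% of all genes tested. Xiap fell by 0.89 on the log2 scale (edgeR adjusted p = 0.0167).

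Of 18 other target genes listed, 13 were tested, and Ccl20, Ptgs2, Nos2, Il6 and Csf3 were too low. Among the 13, 8 rose and 1 fell in treated wild type against PBS, with a median of 2.97. Some were tested through their treated values, such as Cxcl2, with 0.01 and 0.06 FPKM in PBS livers. Cxcl10, a chemokine for T cells, had 16.60 and 13.34 FPKM in treated Optn-/-, 13.35 and 8.62 in treated wild-type and 1.14 and 1.61 in PBS wild-type livers, a wild-type rise of 3.20 ± 0.31 (edgeR adjusted p = 0.00446). Ier3, an immediate early gene, rose by 2.97 ± 0.36 (edgeR adjusted p = 0.00783). The gene that fell was Cflar, which encodes the caspase-8 inhibitor cFLIP, at -2.12 ± 0.27 (edgeR adjusted p = 0.00874). Its FPKM was 3.0 and 3.44 in treated Optn-/- livers, 0.72 and 1.22 in treated wild-type and 4.18 and 5.52 in PBS wild-type livers. Between the treated genotypes it was higher in Optn-/- by 1.71 ± 0.26, which did not pass (edgeR adjusted p = 0.204).

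None of the 4 tested other adhesion molecules passed in treated wild type against PBS. Sele, which encodes E-selectin, was too low to test, with 33 and 18 counts in treated Optn-/- livers, 34 and 15 in treated wild-type and 0 and 0 in PBS wild-type livers. Of the leukocyte partners of adhesion molecules, 3 of 6 tested rose, among them Selplg, the ligand of the selectins, by 1.49 ± 0.21 (edgeR adjusted p = 0.011) and Itgb2, the beta-2 subunit of the Icam1 receptors, by 1.47 ± 0.28 (edgeR adjusted p = 0.0238). Itgb2 had 6.94 and 6.76 FPKM in treated Optn-/- livers, 3.57 and 3.55 in treated wild-type and 1.07 and 1.91 in PBS wild-type livers, and its genotype difference of 0.91 ± 0.27 did not pass (edgeR adjusted p = 0.505). In Optn-/- against wild-type treated livers no gene of any of these 8 lists passed in either direction.

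**Figure D5:**
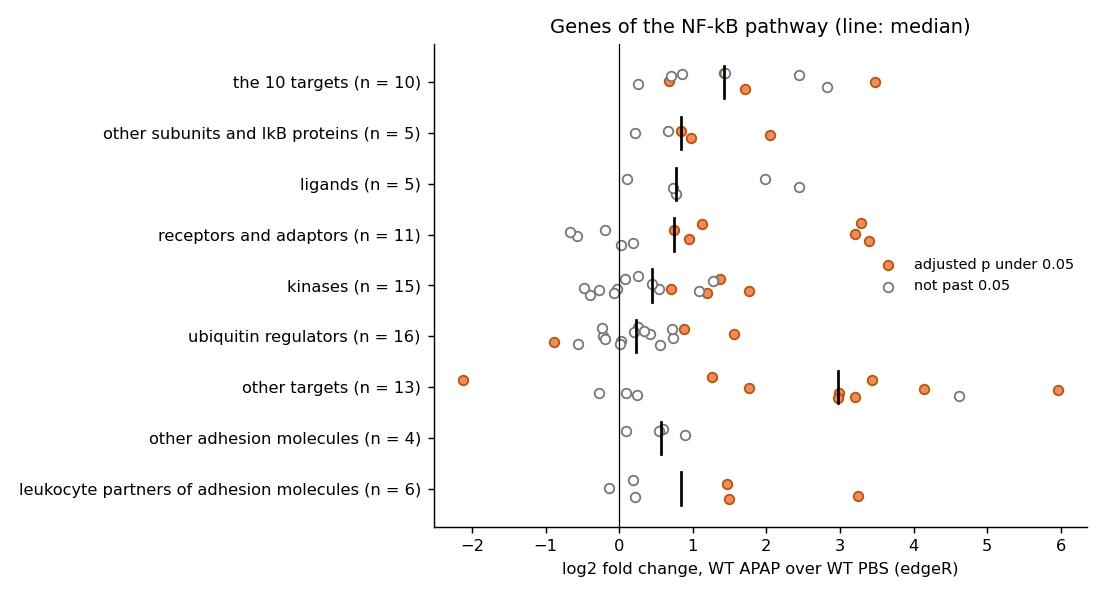
Log2 fold change in treated wild-type over PBS wild-type livers from edgeR for the 10 genes and for 8 lists of other NF-kB pathway genes, with n the genes tested. Filled points have an adjusted p under 0.05 and vertical lines are list medians, which run from 0.23 for ubiquitin regulators to 2.97 for other target genes.

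Several cell types of the liver express these genes, and their markers also moved. The 10 neutrophil markers summed to 152 and 194 CPM in treated Optn-/- livers, 146 and 70.6 in treated wild-type and 2.5 and 6.63 in PBS wild-type livers. In treated wild type against PBS 6 of the 8 tested rose, where 8.36% of all genes tested rose. With such low PBS sums, these markers passed the filter mainly through the treated livers, so this count adds no separate evidence of a rise. Monocyte markers (7 genes) summed to 1460 to 1650 CPM in treated Optn-/-, 1380 to 1580 in treated wild-type and 1160 to 1300 in PBS wild-type livers, with 3 of 5 tested rising. This sum was not split by gene and could rest on a single abundant marker, such as Fn1. It is therefore not a measure of monocyte number. Kupffer cell markers (9 genes, 1 rose) summed to 413 to 628 CPM in treated Optn-/-, 336 to 393 in treated wild-type and 160 to 417 in PBS wild-type livers. None of these 3 lists had a marker at 0 in all libraries.

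The sums of bile duct and stellate cell markers were also higher in treated livers. Like the monocyte sum, they were not split by gene and could rest on a single abundant marker. Bile duct markers (6 genes) summed to 103 and 137 CPM in treated Optn-/-, 94.5 and 59.2 in treated wild-type and 31.5 and 40.1 in PBS wild-type livers. In treated wild type against PBS 2 of the 4 tested rose, where 8.36% of all genes tested rose. Stellate cell markers (7 genes, 0 rose and 1 fell) summed to 264 and 313 CPM in treated Optn-/-, 206 and 157 in treated wild-type and 118 and 155 in PBS wild-type livers. For both lists treated wild-type mouse 4 had the lower sum of its group, and the 3 groups stood in the same order without overlap. T and NK cell markers (7 genes, 1 of 2 tested rose) summed to at most 8.51 CPM and B cell markers (5 genes, 3 tested, 0 past edgeR's threshold) to at most 14.2 CPM in any library.

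Endothelial markers bear on Icam1 and Vcam1. Sinusoidal markers (8 genes, 1 rose) summed to 157 to 178 CPM in treated Optn-/-, 112 to 120 in treated wild-type and 123 to 205 in PBS wild-type livers, so the treated wild-type sums lay below both PBS sums. Vascular markers (6 genes, 4 tested, 0 past edgeR's threshold) summed to 61.5 to 62.8 CPM in treated Optn-/-, 43.0 to 44.3 in treated wild-type and 27.0 to 45.1 in PBS wild-type livers. No marker of either endothelial list was at 0 in all libraries. The part of any of these cell types in the changes of the 10 genes was not tested.

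On normalized CPM, all 10 genes were lowest in the PBS livers, while their course over the treated livers of the 6 libraries differed. For Vcam1 the margin was narrow, at -0.34 in treated wild-type mouse 4 and -0.39 in PBS mouse 6 once standardized. The share of all genes lowest in the PBS livers on this scale was not computed. Nfkbiz was highest in treated wild-type mouse 4, Tnfaip3 in treated wild-type mouse 1 and Nfkb1 in Optn-/- mouse 5. Each gene's normalized log2 CPM was standardized over the libraries and averaged over the genes, giving 0.74 and 0.81 in treated Optn-/- livers, 0.71 and -0.08 in treated wild-type livers and -1.29 and -0.89 in PBS wild-type livers. Treated wild-type mouse 4 thus lay between the PBS mice and the other 3 treated mice. Correlation of a gene with this mean course was highest for Relb and Icam1 (r = 0.99 each) and lowest for Tnfaip3 (r = 0.80) and Nfkbiz (r = 0.81), each of which is part of the mean. Among the 11667 other genes tested, those most like it were Cxcl2, Eif6, Nrd1, Plek and Polr3d, with Pearson r between 0.9962 and 0.9978 over 6 libraries that fall into 3 groups.

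Cxcl2, a neutrophil chemokine, had 4.57 and 5.84 FPKM in treated Optn-/- livers, 4.31 and 0.83 in treated wild-type and 0.01 and 0.06 in PBS wild-type livers. Plek, a gene of platelets and leukocytes, had 6.13 and 7.56 FPKM in treated Optn-/- livers, 6.36 and 2.04 in treated wild-type and 0.21 and 0.36 in PBS wild-type livers. Both shared the low value of treated wild-type mouse 4. The other 3 had smaller ranges: Eif6 had 31.5 and 31.75 FPKM in treated Optn-/- livers, 28.06 and 22.24 in treated wild-type and 14.45 and 17.74 in PBS wild-type livers. Nrd1 was nearly flat, at 6.69 and 7.05, 6.59 and 6.22, and 6.27 and 6.63 FPKM in the same order. Its wild-type groups overlapped by FPKM, with treated wild-type mouse 4 below both PBS mice. The correlation was computed on normalized log2 CPM, so the FPKM of a gene need not follow the mean course. Correlation ignores the size of a range, so a high r does not mean a large change.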

How the data were processed

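Liver poly(A) RNA of 6 mice was sequenced as paired ends on an Illumina instrument, per the labels' protocols. The deposited table gives whole-number counts per gene and library, with no normalization, and the authors' FPKM values in the same table; the 207863 zero counts carry an FPKM entry of 0.0001. The submitters' processing notes name Bowtie 0.12.2 and the mm8 build. The table's coordinates equal GENCODE M21 (GRCm38) for 51991 of 55144 genes (94.3%), and those of 7 of the 10 genes described, so they are given as GRCm38; those of Tnfaip3, Nfkb1 and Birc3 differ from GENCODE M21 and are printed as the table has them. Which counter was used, whether it used strand and how it treated shared reads is not given in the sources used here.

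Counts were fitted with edgeR 4.0.16 (quasi-likelihood, TMM scaling, R 4.3.3) in one model of 3 group means over 6 libraries, for the 11677 genes whose FPKM averaged 0.5 or more. P-values were adjusted by Benjamini-Hochberg over all of them, and 0.05 was the threshold. The common biological coefficient of variation was 0.277. The fit was tested on simulated data. An exact permutation test of 2 against 2 cannot go below a two-sided p of 0.333 and was not used. Nothing says that the mice came from separate litters or cages, so the p-values reflect only how far these samples differ, which may be partly technical. Replicate pairs differed by more than sampling noise (mean chi-square per gene 77.7 to 185.1). Where no read was counted, up to 3 counts remain possible, which is 0.0507 CPM at the lowest depth, for counting error only.

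Alternatives were DESeq2 1.42.0, limma 3.58.1 on log2(FPKM + 0.5), also with 0.1 and 1, other scalings and filters, fits without each mouse, and a term for the library set (muscle or intestinal transcripts). The members and lists were chosen with earlier results of these data known. Named beyond the 10 genes and Optn are up to 3 genes per list with the smallest p in treated wild type against PBS, 1 per list in treated Optn-/- against treated wild type, and Tnf, Rela, Ikbkb, Birc2 and Sele; the text gives values for some of them, and 1 gene is not reported here. Genes most like the 10 were the 5 with the highest correlation to their mean course.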

Additional observations from a re-analysis of the deposited data

How the results depend on the processing

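In treated wild type against PBS, 4 of the 10 genes passed; DESeq2 called 7, and each of limma with its 3 pseudocounts, total-count scaling, a fit of only these 2 groups and the library set term called 2, and without single mice the count ran from 1 to 7. In treated Optn-/- against treated wild type, 0 passed and DESeq2 called 1, and without single mice the count stayed at 0. In treated Optn-/- against PBS, 8 passed; 4 did at a mean FPKM of at least 5, where only 4 were tested, 2 with the library set term, and 2 to 9 without single mice. All log2 fold changes against PBS stayed positive under all alternatives. Between the treated genotypes the library set term turned Nfkbiz (0.09), Relb (-0.52), Icam1 (-0.03) and Vcam1 (-0.65). Without single mice the values ran from -0.82 to 0.36 for Nfkbiz, -2.13 to 0.64 for Tnfaip3, -0.07 to 1.21 for Icam1 and -0.24 to 0.62 for Vcam1. The cause of these shifts was not tested, and a lone mouse in a group was assumed to vary like the others. Because only the PBS mice are divided between the library sets, that term rests on them. No paired analysis was possible because the groups share at most 1 replicate number. Over all genes, 1667, 12 and 2366 passed in treated wild type against PBS, treated Optn-/- against treated wild type and treated Optn-/- against PBS; DESeq2 called 3102, 283 and 3619, the library set term 812, 3 and 960, a mean FPKM of at least 5 left 819, 13 and 1035, and the fits without single mice gave 494 to 1263, 1 to 28 and 750 to 2201. For treated Optn-/- against treated wild type, limma gave 14 to 28, no filter 37 and a fit of only the 2 groups 30.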
